A study of Mus musculus with 9 samples.

Results

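Potassium channels and their accessory subunits were represented by 92 genes among the 19938 genes measured in brain tissue of 5xFAD and wild-type mice. The members are all genes whose symbol begins with Kcn and that have a probe set naming no other gene. The 3 genes with several such probe sets (Kcna2, Kcnh8 and Kcnma1) are given by the probe set with the highest mean over the 9 arrays. By symbol they fall into 35 voltage-gated subunits (Kv), 15 inward rectifiers (Kir), 14 tandem pore domain channels (K2P), 8 calcium- or sodium-activated channels, 17 accessory subunits and 3 antisense transcripts named after channel genes. Membership and class used names only, not the measured values. A class name was not checked against how each member, such as Kcnu1 or Kcnrg, works.

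The 9 arrays form 3 groups of 3 biological replicates. One group is 5xFAD mice given human amylin, a peptide that pancreatic beta cells secrete together with insulin. Another is 5xFAD mice given phosphate-buffered saline (PBS), the vehicle. The last is B6SJLF1/J wild-type (WT) mice that also received PBS. Injections were given daily into the peritoneum for 10 weeks, and the age was about 5 months in each group. The 5xFAD line carries mutant human transgenes under the neuronal Thy1 promoter and forms amyloid plaques. No WT group received amylin, so the effect of the peptide was measured in 5xFAD mice alone. The labels call the tissue brain tissues and the series title gives it as cortex, and they do not say whether each array is 1 animal.

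Potassium channels let potassium leave the cell, and thereby hold the resting potential and end the action potential. Kv channels open on depolarisation, Kir channels conduct best near the resting potential, K2P channels leak at all voltages, and calcium-activated channels produce the pause after a spike. Accessory subunits set how many pore-forming subunits reach the membrane and how fast they open and close. In glia, Kir channels of astrocytes take up the potassium that neurons release, and the potassium conductance of microglia shapes their surveillance and cytokine release.

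Values are log2 intensities after robust multi-array averaging, so a difference of 1 is a doubling, and levels of different genes are not compared. The array medians lay between 5.71 and 5.79, and any 2 arrays correlated at 0.991 or more. The median SD between replicates of a Kcn gene was 0.097 in 5xFAD amylin, 0.094 in 5xFAD PBS and 0.075 in WT PBS arrays, against 0.087, 0.072 and 0.06 over all genes in the same order. A gene is called changed at a limma adjusted p under 0.05 over all 19938 genes. Standard errors (SE) of a difference between 2 groups ranged over the members between 0.044 and 0.214.

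Marker lists for cell types and brain regions differed between the 5xFAD and WT arrays, and these shifts lie in the same comparisons as the channel results. Relative to WT PBS, 14 of 15 microglia markers and 12 of 12 striatum markers rose in 5xFAD PBS mice, with median log2 differences of 1.41 and 1.48. Of the hippocampus markers 9 of 12 fell, and of the thalamus markers 11 of 14 fell, with medians of -0.90 and -0.86. The mean level of the striatum list was 9.04 to 9.20 in 5xFAD amylin, 9.07 to 9.28 in 5xFAD PBS and 7.67 to 7.87 in WT PBS arrays, with no overlap between 5xFAD and WT. The microglia list lay at 8.09 to 8.62, at 8.29 to 8.91 and at 7.02 to 7.04 in these groups. The olfactory bulb list spread widely within the 5xFAD groups, at 6.63 to 7.66 in 5xFAD amylin, 6.52 to 7.81 in 5xFAD PBS and 6.17 to 6.43 in WT PBS arrays, and 1 of its 12 genes rose. Of 12 neuron markers 5 fell, with levels of 10.95 to 11.02, 10.90 to 10.95 and 11.08 to 11.10. In such bulk tissue, fewer cells of a type and less RNA per cell cannot be told apart. The part of these regional and cellular shifts in the channel results was not tested beyond a fit with the olfactory bulb list as a term, that is, with its mean per array as a covariate.

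**Figure D1:**
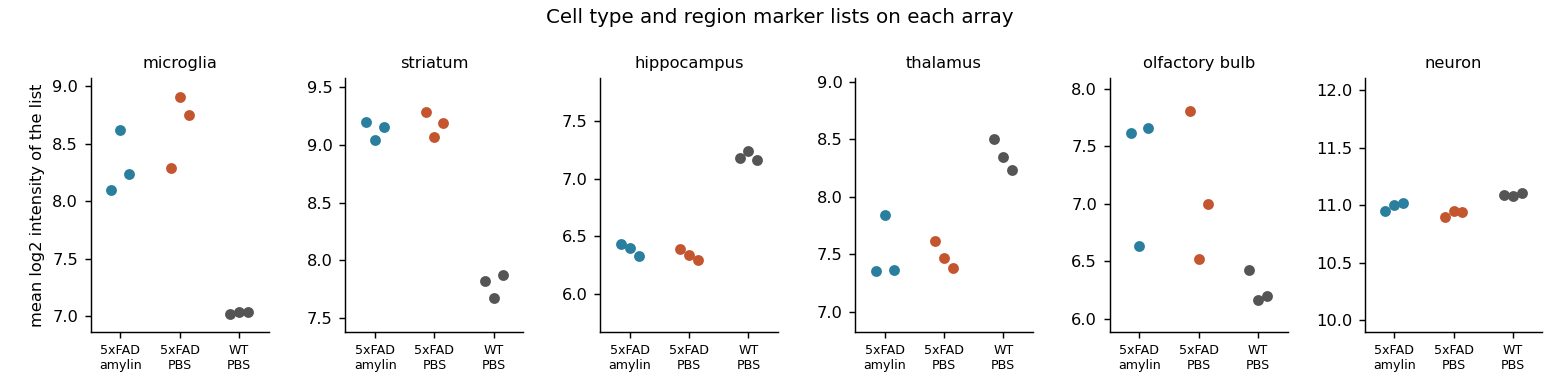
Mean log2 intensity of 6 marker lists on each array (y axis), by group (x axis), with 1 point per array. The striatum list is at 9.04 or above on all 6 5xFAD arrays and at 7.87 or below on the 3 WT arrays, while the hippocampus and thalamus lists are lower on the 5xFAD arrays.

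The first comparison sets 5xFAD PBS against WT PBS mice, both given vehicle. As markers of brain regions differ between these groups, an effect of the transgenes and a difference in the tissue sampled cannot be told apart here. Of the 92 members, 7 rose and 9 fell, and 76 did not pass. The genes that rose were the inward rectifiers Kcnj2, Kcnj4 and Kcnj13, the K2P channels Kcnk2 and Kcnk6, and the Kv subunits Kcna5 and Kcnh1. Those that fell were the Kv subunits Kcnc2, Kcnc4, Kcnd3, Kcng2, Kcng4 and Kcna2, the inward rectifier Kcnj16, the calcium-activated channel Kcnn2 and the accessory subunit Kcnab2. The called share was 17.4% of the members, against 8.58% of all genes, where 3.66% rose and 4.92% fell. The median log2 difference was -0.06 over the members and -0.01 over all genes.

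The arrays of the 2 groups did not overlap for 32 members, 13 higher and 19 lower in 5xFAD PBS, against 26.8% of all genes. An unadjusted p under 0.05 was reached by 32 members as well, against 21.2% of all genes. By mean level, 8 members lay in the lowest 25% of all genes, none of them called, and 33 in the lowest 50%, among them the called Kcna5, Kcng4 and Kcnk6. No measure of background was used, so this rank does not show which members were detected. When quantile normalization was repeated on the genes tested, the split of calls turned to 9 higher and 7 lower. Without WT PBS replicate 1 the count fell to 9 members, with 4.33% of all genes called.

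**Figure D2:**
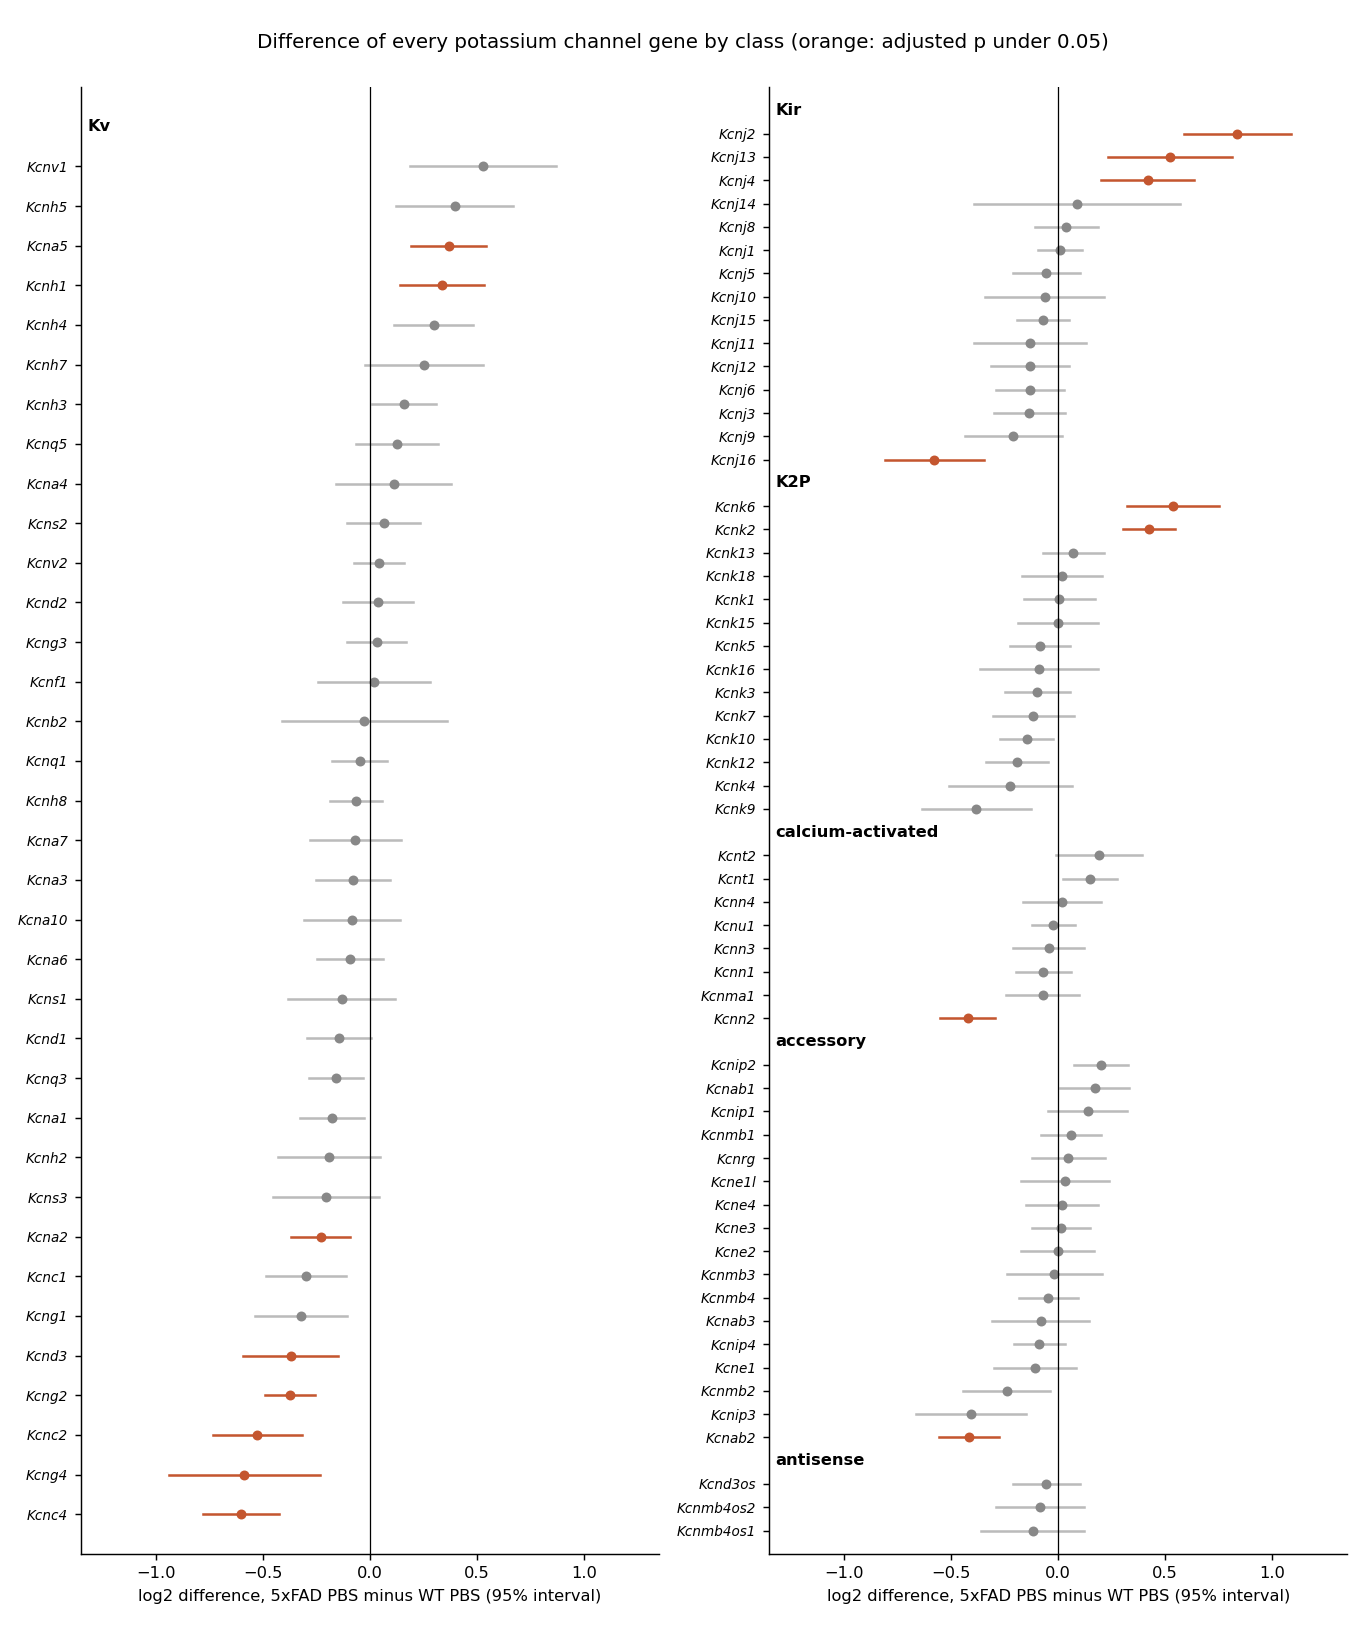
Log2 difference of each of the 92 members between 5xFAD PBS and WT PBS mice (x axis), by channel class, with the 95% interval of the fit as a bar and called genes in orange. Kir genes hold both the highest difference, Kcnj2 at 0.84, and one of the lowest, Kcnj16 at -0.58, and most accessory subunits lie near 0.

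Among the 35 Kv genes, 2 rose and 6 fell (22.9% called, against 8.58% of all genes), and the median log2 difference was -0.07. The Kv3 family has channels that repolarise spikes quickly and allow high firing rates in fast-spiking interneurons. It was represented by Kcnc1, Kcnc2 and Kcnc4, and 2 of these 3 fell, against 4.92% of all genes. Kcnc4 (Kv3.4) had 7.47, 7.58 and 7.63 in 5xFAD PBS arrays, against 8.33, 8.10 and 8.05 in WT PBS arrays. The groups did not overlap, and the log2 difference was -0.60 ± 0.08 (SE), 1.52-fold lower (adjusted p = 0.00195). Kcnc2 (Kv3.2) had 8.68, 8.88 and 8.70 in 5xFAD PBS, against 9.29, 9.35 and 9.20 in WT PBS, a difference of -0.53 ± 0.09 (adjusted p = 0.00826). It passed under all alternatives except with the olfactory bulb list as a term (difference -0.36, adjusted p = 0.0545). Kcnc1 (Kv3.1), the remaining measured family member, had 7.72, 7.53 and 7.85 in 5xFAD PBS and 8.08, 7.97 and 7.94 in WT PBS. Its groups did not overlap either, but the difference of -0.30 ± 0.08 did not pass (adjusted p = 0.0572). On the inhibitory neuron list 0 of 11 markers passed in this comparison, with a median log2 difference of 0.15. By mean, 8 of the 11 were higher and 3 lower, from Dlx1 at 0.87 to Lhx6 at -0.20, with Pvalb at -0.11. The part of any cell type in the Kv3 differences was not tested.

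Silent Kv subunits form no channel on their own and modify Kv2 channels when they assemble with them. Of the 10 measured, 2 fell, both of the Kv6 family (20%, against 4.92% of all genes). Kcng2 (Kv6.2) had 6.63, 6.75 and 6.64 in 5xFAD PBS, against 7.07, 7.01 and 7.06 in WT PBS. All 3 5xFAD arrays were below all WT arrays, with a difference of -0.37 ± 0.05 (adjusted p = 0.00279). Kcng4 (Kv6.4) had 5.56, 6.09 and 5.92 in 5xFAD PBS, against 6.72, 6.40 and 6.20 in WT PBS, a difference of -0.59 ± 0.16 that passed narrowly (adjusted p = 0.0499). This call was lost without any one of 5xFAD amylin replicates 1, 2 and 3 (0.0615, 0.0623 and 0.0762), 5xFAD PBS replicates 1 and 3 (0.136 and 0.11) or WT PBS replicates 1 and 2 (0.181 and 0.114), and with the olfactory bulb list as a term (difference -0.35, adjusted p = 0.349). Another silent subunit, Kcnv1 (Kv8.1), was looked at after its values had been seen. It had 9.15, 9.60 and 9.47 in 5xFAD PBS and 8.61, 9.10 and 8.93 in WT PBS, without overlap, and did not pass (difference 0.53 ± 0.15, adjusted p = 0.0654).

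Kv1 subunits moved both ways. Kcna5 (Kv1.5), known from heart and also from glial cells, had 5.58, 5.46 and 5.33 in 5xFAD PBS, against 5.10, 5.06 and 5.10 in WT PBS. The groups did not overlap, with a difference of 0.37 ± 0.08, or 1.29-fold (adjusted p = 0.0191). The call was lost without 5xFAD PBS replicate 1 (0.0601) or 2 (0.0579), without WT PBS replicate 1 (0.0688), 2 (0.066) or 3 (0.061), and with the olfactory bulb list as a term (difference 0.27, adjusted p = 0.159). Kcna2 (Kv1.2), an axonal subunit found beside the nodes of Ranvier, had 9.17, 9.27 and 9.30 in 5xFAD PBS, against 9.55, 9.49 and 9.39 in WT PBS. Its difference was -0.23 ± 0.06 (adjusted p = 0.0482), and the second probe set of the gene differed by -0.35. No array of the compared groups could be left out without losing the Kcna2 call: the adjusted p was 0.142, 0.0975 and 0.0802 without 5xFAD PBS replicate 1, 2 and 3, and 0.177, 0.129 and 0.0548 without WT PBS replicate 1, 2 and 3. It was also lost without 5xFAD amylin replicate 2 (0.0618) or 3 (0.0634), which enter through the shared spread, and with the olfactory bulb list as a term (difference -0.18, adjusted p = 0.293). Of the other Kv1 members fixed by name, Kcna1 differed by -0.18, Kcna3 by -0.08 and Kcna4 by 0.11, and none passed.

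Kcnd3 (Kv4.3), a subunit of the A-type current that delays firing, had 8.06, 7.68 and 7.96 in 5xFAD PBS, against 8.34, 8.12 and 8.36 in WT PBS. The difference was -0.37 ± 0.10 (adjusted p = 0.0476), with 5xFAD PBS replicate 2 the lowest array. Kcnd2 (Kv4.2), which carries the same kind of current in dendrites, differed by 0.04 ± 0.07 (95% interval -0.13 to 0.20). The Kcnd3 call was lost without 5xFAD PBS replicate 2 (0.109) or 3 (0.0934), WT PBS replicate 1 (0.172) or 3 (0.164), or 5xFAD amylin replicate 1 (0.0642), 2 (0.0685) or 3 (0.0711).

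The Kcnh family, relatives of the fly ether-a-go-go channel, had 7 measured members, of which 1 rose (14.3%, against 3.66% of all genes). Kcnh1 (EAG1) had 8.67, 8.82 and 8.91 in 5xFAD PBS, against 8.30, 8.59 and 8.51 in WT PBS. The groups did not overlap, and the difference was 0.34 ± 0.09 (adjusted p = 0.0445). Kcnh4 (an ELK channel) had 6.75, 7.03 and 6.90 in 5xFAD PBS against 6.48, 6.58 and 6.73 in WT PBS, and its difference of 0.30 ± 0.08 did not pass (adjusted p = 0.0555). Kcnh5 and Kcnh3, looked at after their values had been seen, also had all 5xFAD PBS arrays above all WT arrays. Their differences were 0.40 ± 0.12 and 0.16 ± 0.07, and neither passed (adjusted p = 0.0837 and 0.21). Kcnh7, Kcnh8 and Kcnh2 differed by 0.25, -0.07 and -0.19, with overlapping arrays, and did not pass. Over all genes, 26.8% had no overlap between these groups. The Kcnh1 call was lost without 5xFAD PBS replicate 2 (0.119) or 3 (0.148), WT PBS replicate 1 (0.15) or 3 (0.0977), or 5xFAD amylin replicate 2 (0.0632) or 3 (0.0606). It was lost as well with each array centred on its median (difference 0.34, adjusted p = 0.0501) and with the olfactory bulb list as a term, where the difference was larger at 0.44 (adjusted p = 0.0517).

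Of the Kv7 family, which carries the M current that dampens repetitive firing, 3 members were measured. None passed in this comparison, and Kcnq3, a neuronal M-current subunit, differed by -0.16 ± 0.06 (adjusted p = 0.137) while Kcnq5 differed by 0.13.

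**Figure D3:**
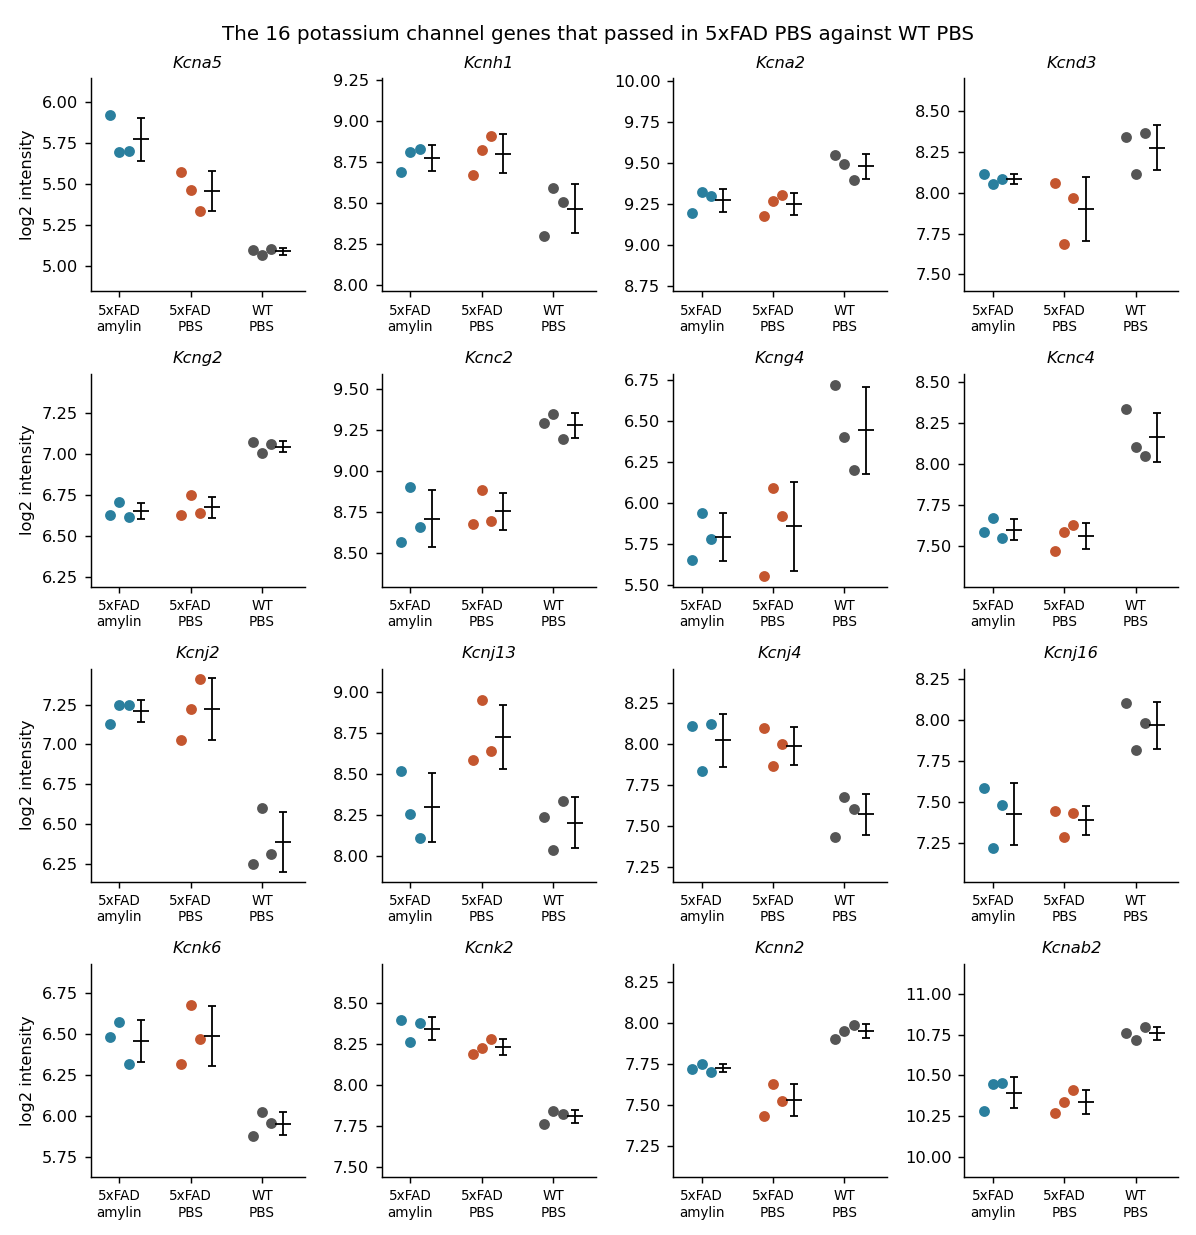
Log2 intensity (y axis) of the 16 members called between 5xFAD PBS and WT PBS mice, with 1 point per array and the mean and SD of each group beside the points. Kcnj2 lies at 7.03 or above on all 5xFAD arrays and at 6.60 or below on the WT arrays. The 5xFAD amylin arrays of Kcna5 lie above the 5xFAD PBS arrays, a difference that did not pass.

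Of the 15 Kir genes, 3 rose and 1 fell (26.7% called, against 8.58% of all genes), with a median log2 difference of -0.06. Kcnj2 (Kir2.1), a strong rectifier of neurons and microglia, showed the largest difference of any member. It had 7.03, 7.23 and 7.41 in 5xFAD PBS, against 6.25, 6.60 and 6.31 in WT PBS. The groups lay apart, at 0.84 ± 0.11 or 1.79-fold (adjusted p = 0.00215). Kcnj4 (Kir2.3), a strong rectifier of forebrain neurons, had 8.10, 7.87 and 8.00 in 5xFAD PBS, against 7.44, 7.68 and 7.60 in WT PBS, also without overlap. Its difference was 0.42 ± 0.10 (adjusted p = 0.0273). That call was lost without 5xFAD PBS replicate 1 (0.0897) or 3 (0.0876) or WT PBS replicate 1 (0.113) or 3 (0.073), and with the olfactory bulb list as a term (difference 0.26, adjusted p = 0.215).

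Kcnj13 (Kir7.1), a channel of transporting epithelia such as the choroid plexus, had 8.58, 8.95 and 8.64 in 5xFAD PBS, against 8.24, 8.03 and 8.34 in WT PBS. The groups did not overlap, with a difference of 0.52 ± 0.13 (adjusted p = 0.0359). Its call was lost without 5xFAD PBS replicate 2 (0.109) or 3 (0.0758), WT PBS replicate 1 (0.103), 2 (0.12) or 3 (0.0588), or 5xFAD amylin replicate 2 (0.0539), and with the olfactory bulb list as a term, where the difference was larger at 0.62 (adjusted p = 0.0753). The choroid plexus list, of which Kcnj13 is 1 of 8 measured genes, had a mean level of 7.13 to 7.23 in 5xFAD amylin, 7.14 to 7.35 in 5xFAD PBS and 7.10 to 7.30 in WT PBS arrays, so that the groups overlapped. Ttr, the transport protein that this epithelium secretes, did not pass with a difference of 0.07, and Otx2, a transcription factor on the list, fell by 0.62. Folr1, Aqp1 and Clic6 differed by 0.20, 0.18 and 0.01, and Slc4a5 and Kl by -0.10 and -0.29, and none of these passed. The part of the choroid plexus in the Kcnj13 difference was not tested.

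Kcnj16 (Kir5.1), a subunit that joins Kir4.1 in astrocytes, had 7.45, 7.29 and 7.44 in 5xFAD PBS, against 8.10, 7.82 and 7.98 in WT PBS. All 5xFAD PBS arrays lay below the WT arrays, at -0.58 ± 0.10 or 1.49-fold lower (adjusted p = 0.00871). Its partner Kcnj10 (Kir4.1), the main potassium-buffering channel of astrocytes, had 8.86, 9.01 and 9.05 in 5xFAD PBS, against 9.18, 8.98 and 8.94 in WT PBS. These arrays overlapped, and Kcnj10 differed by -0.06 ± 0.12 (95% interval -0.34 to 0.22). Of 12 astrocyte markers 1 rose and 2 fell in the same comparison (25% called, against 8.58% of all genes). Gfap differed by 1.63, Aldoc by -0.22 and Fgfr3 by -0.41. In the RefSeq gene order of GRCm38.p6, used for neighbourhood only, Kcnj16 and Kcnj2 are adjacent genes on chromosome 11, 1 of 10 such pairs of members.

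The G protein-gated Kir3 channels, which carry slow inhibition by neurotransmitters, did not pass. Kcnj3, Kcnj6 and Kcnj9 differed by -0.13, -0.13 and -0.21. The subunits of ATP-sensitive channels, Kcnj8 and Kcnj11, differed by 0.04 and -0.13, and did not pass either.

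The promoters of the 3 Kir genes that rose are shown beside that of Kcnc4, the member with the largest fall, so that the windows of members that moved in opposite directions can be read side by side. They are RefSeq sequences of GRCm38.p6, each running 250 bases before and 50 bases after the annotated start and printed along the gene's strand, at chr11:111065914-111066213 (plus strand) for Kcnj2, chr15:79505192-79505491 (minus) for Kcnj4, chr1:87394680-87394979 (minus) for Kcnj13 and chr3:107458849-107459148 (minus) for Kcnc4. Capitals mark matches on either strand to the GC box GGGCGG, the TATA box TATAAA and the E-box CACGTG.
Kcnj2: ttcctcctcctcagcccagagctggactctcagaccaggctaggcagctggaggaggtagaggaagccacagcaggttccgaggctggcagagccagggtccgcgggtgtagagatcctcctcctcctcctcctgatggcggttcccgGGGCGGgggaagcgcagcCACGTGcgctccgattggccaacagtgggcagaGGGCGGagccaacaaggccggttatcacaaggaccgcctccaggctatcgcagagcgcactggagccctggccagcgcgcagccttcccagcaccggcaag
Kcnj4: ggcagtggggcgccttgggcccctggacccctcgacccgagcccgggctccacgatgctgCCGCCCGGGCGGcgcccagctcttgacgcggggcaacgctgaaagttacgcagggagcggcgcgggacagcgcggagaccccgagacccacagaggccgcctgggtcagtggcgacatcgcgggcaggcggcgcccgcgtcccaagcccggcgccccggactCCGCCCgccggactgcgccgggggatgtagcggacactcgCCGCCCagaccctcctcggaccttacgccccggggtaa
Kcnj13: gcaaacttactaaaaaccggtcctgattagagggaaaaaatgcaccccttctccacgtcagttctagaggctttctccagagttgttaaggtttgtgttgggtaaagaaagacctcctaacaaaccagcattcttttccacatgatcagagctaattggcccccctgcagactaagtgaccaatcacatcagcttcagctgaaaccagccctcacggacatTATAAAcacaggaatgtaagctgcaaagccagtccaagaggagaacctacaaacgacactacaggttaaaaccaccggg
Kcnc4: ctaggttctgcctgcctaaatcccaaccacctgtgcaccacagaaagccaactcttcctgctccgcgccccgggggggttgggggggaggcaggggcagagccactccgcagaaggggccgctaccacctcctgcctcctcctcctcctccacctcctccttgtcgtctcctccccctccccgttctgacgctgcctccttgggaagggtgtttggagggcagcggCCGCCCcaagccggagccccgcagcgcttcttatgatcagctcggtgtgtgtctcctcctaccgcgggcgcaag

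The Kcnj2 window is 66.7% G and C and holds 2 GC boxes and 1 E-box, the Kcnj4 window is 76.0% G and C with 4 GC boxes, and the Kcnc4 window is 66.7% with 1 GC box. The Kcnj13 window differs in kind: it is 46.0% G and C, holds no GC box and has 1 TATA box. A promoter entry was matched for 70 of the 92 members, with 95 entries in all, and for 13 of the 16 called genes. The GC box was found in 47.4% of the members' entries, against 35.7% of the 32851 promoters of the table, and the TATA box in 5.26% against 13.6%. The E-box stood in 7.37% against 7.15%, and the cAMP response element TGACGTCA in 0% against 1.79%. These matches describe the letters in the windows, which were not measured by the arrays.

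Among the 14 K2P genes, 2 rose and none fell (14.3% called, against 8.58% of all genes), while the class median was -0.09. Kcnk2 (TREK-1), a leak channel opened by stretch and by fatty acids, had 8.19, 8.22 and 8.28 in 5xFAD PBS, against 7.76, 7.84 and 7.82 in WT PBS. The replicates lay close together and the groups far apart, at 0.42 ± 0.05 (adjusted p = 0.00166). Kcnk6 (TWIK-2), a leak channel known from macrophages, had 6.32, 6.68 and 6.47 in 5xFAD PBS, against 5.88, 6.02 and 5.96 in WT PBS. Its difference was 0.53 ± 0.10 or 1.45-fold (adjusted p = 0.00916). Both calls held under all alternatives in which the gene was tested. Kcnk9 (TASK-3), an acid-sensitive leak channel of neurons, had 7.38, 7.24 and 7.49 in 5xFAD PBS and 7.97, 7.73 and 7.55 in WT PBS. Its arrays did not overlap, but the difference of -0.38 ± 0.11 did not pass (adjusted p = 0.0766). Kcnk1 (TWIK-1) differed by 0.00 ± 0.07 (95% interval -0.16 to 0.17), and Kcnk3 by -0.10. The K2P median was -0.02 without 5xFAD PBS replicate 3.

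Of the 8 calcium- or sodium-activated genes, 1 fell and none rose. Over all genes 4.92% fell and 8.58% were called in either direction, so 1 call among 8 genes does not set this class apart. Kcnn2 (SK2), which carries the afterhyperpolarisation of many neurons and limits synaptic potentials in spines, had 7.43, 7.63 and 7.52 in 5xFAD PBS, against 7.90, 7.95 and 7.99 in WT PBS. The groups did not overlap, with a difference of -0.42 ± 0.06 or 1.34-fold lower (adjusted p = 0.0023). The related SK genes Kcnn1 and Kcnn3 differed by -0.07 and -0.04. Kcnma1, the pore of the large-conductance BK channel, differed by -0.07 ± 0.08. The sodium-activated channels Kcnt1 and Kcnt2 differed by 0.15 and 0.19, and none of these genes passed.

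Of the 17 accessory genes, 1 fell (5.88% called, below the 8.58% of all genes), with a class median of 0.00. Kcnab2, a cytosolic beta subunit of Kv1 channels, had 10.27, 10.34 and 10.41 in 5xFAD PBS, against 10.76, 10.72 and 10.80 in WT PBS. The difference was -0.42 ± 0.06 (adjusted p = 0.00384), and the groups did not overlap. Its relative Kcnab1 had 9.71, 9.82 and 9.73 in 5xFAD PBS and 9.50, 9.71 and 9.54 in WT PBS, with overlap at the edge, and did not pass (0.17 ± 0.07, adjusted p = 0.209). The KChIP proteins bind Kv4 subunits: Kcnip3, also known as the calcium-dependent repressor DREAM, had 9.97, 10.20 and 9.94 in 5xFAD PBS and 10.45, 10.44 and 10.44 in WT PBS. It did not pass (-0.41 ± 0.11, adjusted p = 0.0614), and neither did Kcnip2 (0.20 ± 0.06, adjusted p = 0.0593). Kcnip1 and Kcnip4 differed by 0.14 and -0.09. The 3 antisense transcripts differed by between -0.12 and -0.05 and did not pass.

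Members known from microglia or macrophages were looked at together after their values had been seen, beside the microglia markers with their median difference of 1.41. Of 6 such genes, Kcnj2, Kcnk6 and Kcna5 rose, as given above, and the other 3 did not pass. Over all genes 3.66% rose. Because these genes were picked with their values known, the count is not a result about microglial channels. Kcnk13 (THIK-1) differed by 0.07 ± 0.06, Kcna3 (Kv1.3) by -0.08 ± 0.08 and Kcnn4 (KCa3.1) by 0.02 ± 0.08 in 5xFAD PBS relative to WT PBS.

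The second comparison sets 5xFAD amylin against 5xFAD PBS mice and asks what amylin changed in the transgenic animals. None of the 92 members passed in limma in either direction, as against 0.00502% of all genes called in all, 0.00502% higher and 0% lower. An unadjusted p under 0.05 was reached by 9 members, 4 higher and 5 lower, against 6.9% of all genes. The arrays did not overlap for 7 members, against 9.3% of all genes. As shares of the members these are 9.78% and 7.61%, the first above and the second below that of all genes, and the median log2 difference of the members was 0.01.

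The 7 members without overlap were Kcna5, Kcnn2, Kcns2 and Kcnmb2, higher with amylin, and Kcnj13, Kcnj10 and Kcnq3, lower with amylin. Kcns2, a silent Kv subunit, and Kcnmb2, a BK beta subunit, are named after their values had been seen. Kcna5 had 5.92, 5.69 and 5.70 in 5xFAD amylin arrays, against 5.58, 5.46 and 5.33 in 5xFAD PBS arrays. The difference was 0.32 ± 0.08 (95% interval 0.14 to 0.49, adjusted p = 0.574), and over the alternatives the adjusted p ranged between 0.24 and 0.924. Kcnn2 had 7.72, 7.75 and 7.70 in 5xFAD amylin, against 7.43, 7.63 and 7.52 in 5xFAD PBS, a difference of 0.20 ± 0.06 (adjusted p = 0.66).

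Kcnj13 had 8.52, 8.26 and 8.11 in 5xFAD amylin, against 8.58, 8.95 and 8.64 in 5xFAD PBS. The difference was -0.43 ± 0.13 (adjusted p = 0.664). Kcnj10 had 8.32, 8.81 and 8.74 in 5xFAD amylin, against 8.86, 9.01 and 9.05 in 5xFAD PBS, a difference of -0.35 ± 0.12 (adjusted p = 0.687) that was -0.20 without 5xFAD amylin replicate 1, the lowest array. The oligodendrocyte list had a median difference of -0.21 in this comparison, at a level of 9.08 to 9.27 in 5xFAD amylin and 9.35 to 9.54 in 5xFAD PBS arrays, and 0 of its 11 genes passed. The microglia list had a median difference of -0.25, with 15 of 15 genes lower and 0 passing, and the hypothalamus list one of 0.60, with 8 of 9 higher and 0 passing. On the hypothalamus list 5xFAD amylin replicate 2 stood apart, at 6.87 against 5.83 and 5.79 on the other 5xFAD amylin arrays and 5.33 to 5.92 on the 5xFAD PBS arrays. The part of these lists in the channel values was not tested. Kcnq3 had 9.29, 9.27 and 9.35 in 5xFAD amylin and 9.40 on each 5xFAD PBS array, a difference of -0.10 ± 0.06.

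**Figure D4:**
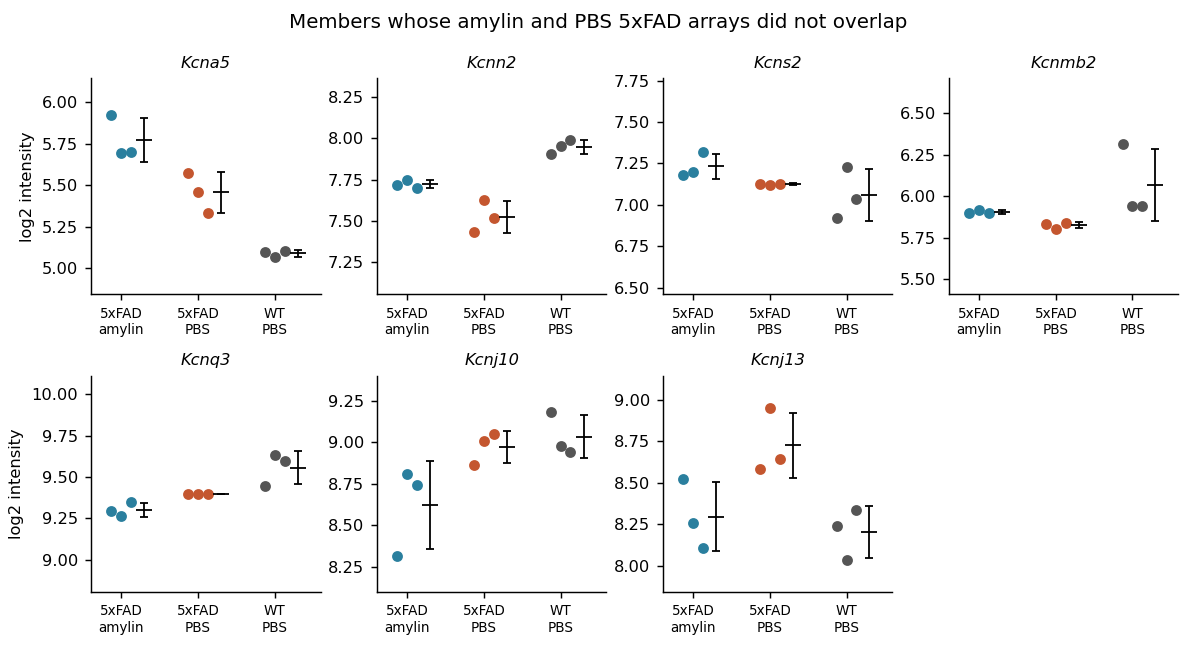
Log2 intensity (y axis) of the 7 members whose 5xFAD amylin and 5xFAD PBS arrays did not overlap, with 1 point per array and the mean and SD of each group. None of these differences passed, and Kcnj13 in 5xFAD amylin arrays spans 8.11 to 8.52, the 5xFAD PBS arrays 8.58 to 8.95 and the WT arrays 8.03 to 8.34.

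The third comparison sets 5xFAD amylin against WT PBS mice. It shares the WT arrays with the first comparison, so the values of both are given side by side and their likeness is not a separate result. Of the 92 members, 5 rose and 8 fell, or 14.1%, against 5.21% of all genes, where 2.35% rose and 2.86% fell. The arrays did not overlap for 33 members (23.1% of all genes), and 30 reached an unadjusted p under 0.05 (19.2% of all genes). The genes that rose were Kcna5, Kcnj2, Kcnj4, Kcnk2 and Kcnk6, and those that fell were Kcnc2, Kcnc4, Kcng2, Kcng4, Kcnq3, Kcnj16, Kcnab2 and Kcnip3. The median was -0.06 over the members and -0.01 over all genes. In the same comparison 13 of 15 microglia, 12 of 12 striatum, 2 of 12 olfactory bulb and 2 of 9 hypothalamus markers rose, while 9 of 12 hippocampus, 10 of 14 thalamus and 6 of 11 oligodendrocyte markers fell. The oligodendrocyte median was -0.32, with all 11 genes lower, and the part of these shifts in the channel calls was not tested beyond the olfactory bulb term. Without WT PBS replicate 1 or 3, 8 members were called, with 2.24% and 2.99% of all genes, and with the olfactory bulb list as a term 5 were, with 2.17% of all genes.

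By class, 1 Kv gene rose and 5 fell, 2 Kir genes rose and 1 fell, and 2 K2P genes rose. In addition, 2 accessory genes fell and no calcium- or sodium-activated gene passed. The called shares were 17.1% of Kv, 20% of Kir, 14.3% of K2P and 11.8% of accessory genes, against 5.21% of all genes. Kcna5 differed by 0.68 ± 0.08 or 1.61-fold in 5xFAD amylin relative to WT PBS (adjusted p = 0.00148), beside 0.37 in 5xFAD PBS relative to WT PBS. Its 9 arrays fell into 3 separate ranges, 5.69 to 5.92 in 5xFAD amylin, 5.33 to 5.58 in 5xFAD PBS and 5.06 to 5.10 in WT PBS. The Kcna5 difference between 5xFAD amylin and 5xFAD PBS, 0.32, did not pass in limma (adjusted p = 0.574). Of all genes, 9.3% had no overlap between those groups, and 26.8% had none between 5xFAD PBS and WT PBS. Kcnk2 differed by 0.54 ± 0.05 (adjusted p = 0.000865), beside 0.42, and Kcnj2 by 0.82 ± 0.11 (adjusted p = 0.0037), beside 0.84. Those 3 calls held under all alternatives in which the gene was tested.

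Kcnk6 differed by 0.50 ± 0.10 (adjusted p = 0.0169), beside 0.53, and lost its call without 5xFAD amylin replicate 2 (0.0529) or WT PBS replicate 1 (0.0841) or 3 (0.0593). Kcnj4 differed by 0.45 ± 0.10 (adjusted p = 0.027), beside 0.42. It did not pass without 5xFAD amylin replicate 1 (0.076) or 3 (0.0996) or WT PBS replicate 1 (0.116) or 3 (0.0746), nor with the olfactory bulb list as a term (difference 0.25, adjusted p = 0.36). Kcnj13 differed by 0.09 ± 0.13 (adjusted p = 0.765), beside 0.52 in 5xFAD PBS relative to WT PBS.

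Of the genes that fell, Kcnc4 differed by -0.56 ± 0.08 (adjusted p = 0.00432), Kcnc2 by -0.57 ± 0.09 (0.00859), Kcng2 by -0.40 ± 0.05 (0.00322) and Kcnab2 by -0.36 ± 0.06 (0.0111), beside -0.60, -0.53, -0.37 and -0.42 in the first comparison. These 4 calls held under all alternatives except the olfactory bulb list as a term, with differences of -0.49, -0.36, -0.32 and -0.29 (adjusted p = 0.0725, 0.116, 0.0584 and 0.164 in the same order). Kcnj16 differed by -0.54 ± 0.10 (adjusted p = 0.0166), beside -0.58, and was lost without WT PBS replicate 1 (0.0821) or 3 (0.0628) and in a fit of only these 2 groups (0.0511). Kcng4 had 5.65, 5.94 and 5.78 in 5xFAD amylin, all below the WT arrays, and differed by -0.65 ± 0.16 (adjusted p = 0.0454), beside -0.59. It was lost without 5xFAD amylin replicate 1, 2 or 3 (0.115, 0.0599 and 0.131), 5xFAD PBS replicate 3 (0.0757) or WT PBS replicate 1 or 2 (0.165 and 0.109), and with the olfactory bulb list as a term (difference -0.36, adjusted p = 0.489).

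Kcnip3 had 10.13, 9.65 and 10.01 in 5xFAD amylin, against 10.45, 10.44 and 10.44 in WT PBS, a difference of -0.51 ± 0.11 (adjusted p = 0.0334), beside -0.41 in the first comparison. The call was lost without WT PBS replicate 1, 2 or 3 (0.122, 0.0968 and 0.0986), 5xFAD amylin replicate 3 (0.0739) or 5xFAD PBS replicate 3 (0.0521), and with the olfactory bulb list as a term, where the difference was larger in size at -0.61 (adjusted p = 0.118). Kcnq3 had 9.29, 9.27 and 9.35 in 5xFAD amylin, against 9.44, 9.63 and 9.60 in WT PBS, a difference of -0.25 ± 0.06 (adjusted p = 0.0334), beside -0.16. It was lost without 5xFAD amylin replicate 1, 2 or 3 (0.07, 0.0891 and 0.062), 5xFAD PBS replicate 3 (0.0586) or WT PBS replicate 2 or 3 (0.113 and 0.117), with the arrays centred on their medians (difference -0.24, adjusted p = 0.056) and with the olfactory bulb list as a term (difference -0.26, adjusted p = 0.212). Kcnn2 missed the threshold at -0.22 ± 0.06 (adjusted p = 0.0551), beside -0.42 in 5xFAD PBS relative to WT PBS. Kcnj10 differed by -0.41 ± 0.12 (adjusted p = 0.0973) and Kcnip1 by 0.32 ± 0.08 (adjusted p = 0.0549), without overlap of the arrays, and neither passed.

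**Figure D5:**
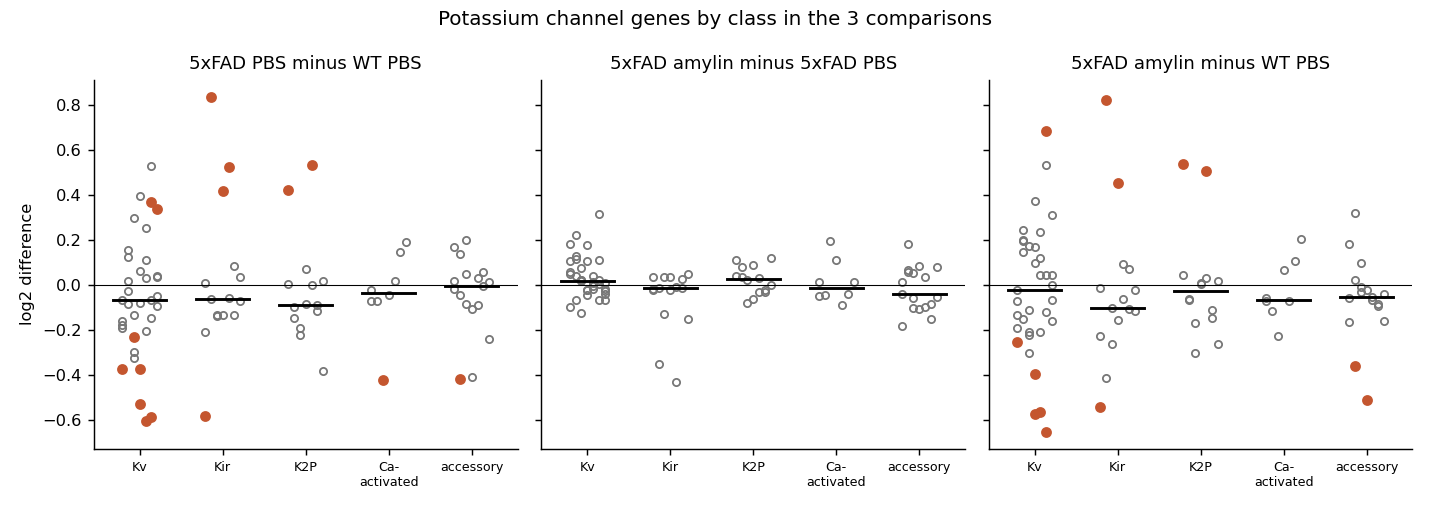
Log2 difference (y axis) of the members in the 3 comparisons, by channel class (x axis), without the antisense transcripts. Filled orange points are called genes, open points the others, and a bar marks the class median. Called points lie on both sides of 0 among Kv and Kir genes in both comparisons with WT, and the comparison of 5xFAD amylin with 5xFAD PBS holds no filled point.

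Genes that work with potassium channels were read from 2 lists. The 20 measured channel partners include auxiliary and anchoring proteins and the related HCN channels. In 5xFAD PBS relative to WT PBS, 0 rose and 2 fell, with a median of -0.03. That is 10% called, against 8.58% of all genes. Dpp6, an auxiliary subunit of Kv4 channels, fell by 0.45 (adjusted p = 0.0163), and Abcc8, the sulfonylurea receptor of ATP-sensitive channels, fell by 0.29 (adjusted p = 0.0163). In 5xFAD amylin relative to WT PBS, 0 partners rose and 3 fell, or 15%, against 5.21% of all genes. Abcc8 fell by 0.31 and Cntn2, which helps to cluster Kv1 channels on axons, by 0.39 (adjusted p = 0.0322). Hcn2, a channel opened by hyperpolarisation, fell by 0.38 (adjusted p = 0.0408).

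Of 15 measured pump and cotransport genes, 1 rose and 1 fell in 5xFAD PBS relative to WT PBS, with a median of -0.06. That is 13.3% called, against 8.58% of all genes. Fxyd1, a regulator of the sodium-potassium pump, rose by 0.50, and Slc12a5 (KCC2), the neuronal potassium-chloride exporter, fell by 0.27 (adjusted p = 0.011). In 5xFAD amylin relative to WT PBS, Slc12a5 fell by 0.22 (adjusted p = 0.0355) and no other gene of this list passed. The called share there was 6.67% of the list, against 5.21% of all genes. No gene of either list passed in limma between 5xFAD amylin and 5xFAD PBS, where 0.00502% of all genes were called. An unadjusted p under 0.05 was reached there by 0 of 20 partners and 1 of 15 pump and cotransport genes. The share of all genes was 6.9%.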

How the data were processed

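Biotin-labelled RNA of 9 mouse brain samples was hybridised to 1 Affymetrix gene array each. The deposited values are log2 intensities of 35556 probe sets, which the authors made with RMA (background correction, quantile normalization and probe summary) in the R package oligo, per the submitters' processing notes. Versions and the genome build of the array annotation are not given in the sources used here. No further normalization was applied to the deposited log2 values. Of the probe sets, 21789 named 1 gene, 1621 several and 12146 none; genes with several single-gene probe sets were given by the one with the highest mean, which left 19938 genes, none filtered for low signal.

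The comparisons came from limma 3.58.1 (R 4.3.3), which was fitted once to the 9 arrays with group means as coefficients, eBayes with no trend (degrees of freedom, 6 residual and 3.53 prior) and Benjamini-Hochberg adjustment over all 19938 genes; differences carry that fit's standard error, and means of groups rest on 3 arrays each. The number of arrays limits the precision. Figures were drawn with matplotlib 3.10.9.

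The rule for naming members took those called in a comparison, the 3 smallest p-values of each class per comparison, and 46 genes fixed by name, of which 43 were analysed here. Not all of them are described above. Of the genes fixed by name, Kcnab3, Kcnmb4 and Kcne2 differed by -0.08, -0.05 and -0.0022 in 5xFAD PBS relative to WT PBS. Of those with the smallest p-values, Kcnk5, Kcnk10, Kcnk12, Kcne4 and Kcnmb1 were left out. None of these genes passed in any comparison. The members, the marker, partner and pump lists, the tests and the alternatives were chosen with earlier results of these data known. Alternatives were repeated quantile normalization, median centring, leaving out the lowest 25% or 50% of genes, array weights, a robust prior with a trend, a separate fit for each pair of groups, the mean of all probe sets, the mean of the olfactory bulb markers as a covariate, a block for the replicate number, other thresholds, and leaving out each array. Replicate numbers were not treated as pairs, because the deviations of same-numbered arrays correlated at -0.056 to 0.183, with 4 of 9 pairs over 0.1.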

Additional observations from a re-analysis of the deposited data

How the results depend on the processing

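Of the 29 calls of a member in a comparison, 11 held under each of the alternatives in which the gene was tested: Kcnab2, Kcnc4, Kcng2, Kcnj16, Kcnj2, Kcnk2, Kcnk6 and Kcnn2 in 5xFAD PBS relative to WT PBS, and Kcna5, Kcnj2 and Kcnk2 in 5xFAD amylin relative to WT PBS. No called difference changed sign under any of them. None of the alternatives had the striatum, hippocampus, thalamus or microglia list as a term. They therefore cannot tell an effect of the transgenes and a difference in the tissue sampled apart. The number of called members in 5xFAD PBS relative to WT PBS, 16, became 10 when the mean of the olfactory bulb markers was fitted as a covariate (5.04% of all genes, against 8.58%) and 32 at an unadjusted p under 0.05 (21.2% of all genes), and lay between 9 and 16 when single arrays were left out, being lowest without WT PBS replicate 1 (4.33% of all genes). For 5xFAD amylin relative to WT PBS, 13 became 5 with that covariate (2.17% of all genes, against 5.21%) and 30 at an unadjusted p under 0.05 (19.2%), and lay between 8 and 15 without single arrays, being lowest without WT PBS replicate 1 or 3 (2.24% and 2.99%). For 5xFAD amylin relative to 5xFAD PBS, 0 became 9 at an unadjusted p under 0.05 (6.9% of all genes) and stayed at 0 otherwise. The cause of these changes was not tested. Fits of only the 2 groups compared ended the calls of Kcna2, Kcnd3, Kcng4 and Kcnh1 in 5xFAD PBS relative to WT PBS (adjusted p = 0.0632, 0.108, 0.102 and 0.0838) and of Kcng4, Kcnip3, Kcnj16, Kcnj4 and Kcnq3 in 5xFAD amylin relative to WT PBS (0.0544, 0.0676, 0.0511, 0.0576 and 0.0812). Repeated quantile normalization ended those of Kcna2 (0.0672) and Kcnd3 (0.0555) in 5xFAD PBS relative to WT PBS, and array weights that of Kcng4 in 5xFAD amylin relative to WT PBS (0.0651).

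With the replicate number as a replicate block, 13, 0 and 12 members were called in 5xFAD PBS against WT PBS, 5xFAD amylin against 5xFAD PBS and 5xFAD amylin against WT PBS, with 8.22%, 0% and 5.31% of all genes. The block ended the calls of Kcna2 (0.0773), Kcng4 (0.0632) and Kcnj13 (0.0601) in 5xFAD PBS relative to WT PBS, and of Kcng4 (0.0569) and Kcnip3 (0.055) in 5xFAD amylin relative to WT PBS. Among the class medians, K2P in 5xFAD PBS relative to WT PBS was -0.15 without the lowest 50% of genes, against -0.09, and between -0.10 and -0.02 without single arrays. The calcium- or sodium-activated median in 5xFAD amylin relative to WT PBS, -0.06, was 0.0044 without the lowest 50% of genes, -0.008 with the olfactory bulb covariate and between -0.0789 and -0.0144 without single arrays. With 3 arrays a group, differences near the standard error of 0.08 of a typical member were not detectable. Differences several times larger could also miss the threshold, such as -0.38 for Kcnk9 and 0.53 for Kcnv1 in 5xFAD PBS relative to WT PBS. A p that misses the threshold does not show that levels were alike.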

Other observations

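The arrays of the antisense transcript Kcnd3os overlapped between the groups. It had 6.74, 6.56 and 6.47 in 5xFAD amylin, 6.67, 6.71 and 6.60 in 5xFAD PBS and 6.74, 6.67 and 6.74 in WT PBS arrays, while the gene it is named after, Kcnd3, fell in 5xFAD PBS relative to WT PBS.

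On chromosome 6, the neighbouring Kv1 genes Kcna5, Kcna1 and Kcna6 differed by 0.37, -0.18 and -0.09 in 5xFAD PBS relative to WT PBS and by 0.68, -0.07 and -0.16 in 5xFAD amylin relative to WT PBS, and of these Kcna5 passed in limma in both. On chromosome 3, Kcna3, Kcna2 and Kcna10 differed by -0.08, -0.23 and -0.08 in 5xFAD PBS relative to WT PBS.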
